A study of Canis lupus familiaris with 2 samples.

Results

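Windows of very high read depth are stretches of the autosomes on which far more sequencing reads were placed than on the rest of the genome. They were examined in whole-genome bisulfite sequencing of MDCK, a dog kidney line of epithelial origin. The tested library came from cells given TGF-beta at 5 ng/ml and labelled mesenchymal, and the control library from untreated cells kept in culture beside them for 30 days and labelled epithelial. There was 1 library per group, of the same line and medium, so no difference has a replicate check, and tests on reads compare these libraries and not the conditions. A call is 1 read base over a CpG cytosine, methylated or not, and the level of a site is the methylated share of its calls. The windows were chosen by depth alone: of 1497885 fixed windows of 1000 bp on chromosomes 1 to 38 with at least 5 listed CpG sites in each library, 160 (0.0107%) had a median number of calls per site at least 5 times the autosomal median in both libraries. The autosomal median was 35 calls in the TGF-beta library and 21 in the control, so the limits were 175 calls (TGF-beta) and 105 calls (control).

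Read depth depends in part on how many copies of a sequence the cells carry for each copy in the assembly. Where an assembly holds fewer copies of a repeat than the genome does, reads from all the copies pile up on the few that are present, and the methylation level there is an average over copies that may differ from each other. Satellite arrays near centromeres, subtelomeric repeats, ribosomal DNA and recent segmental duplications are known for this, and in mammals many such repeats are densely methylated. Extra copies that a cell line has gained, as immortal lines often have, raise the depth in the same way. The methylation of CpG sites is put in place by DNA methyltransferases, and intermediate levels in bulk DNA stand for molecules that differ, either between cells or between copies. Which repeats or genes the windows hold is not analysed here, since no sequence or annotation of the canFam3 build was used, and the label of collapsed repeats was not tested.

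The windows passed the limit by a wide range of margins. Their median depth was 235 calls per site in the TGF-beta library and 149 in the control, which was 6.72 (TGF-beta) and 7.07 (control) times the autosomal medians. The multiples ranged over 5.04 to 72.2 in the TGF-beta library and 5.00 to 76.5 in the control. They held 0.168% of the TGF-beta calls and 0.195% of the control calls in all 1497885 windows. With 1 library alone as the criterion, 389 windows passed in the TGF-beta library and 899 in the control, so the 160 shared windows were 41.1% of the TGF-beta list and 17.8% of the control list. The 229 windows that passed only in the TGF-beta library had median multiples of 5.71 there and 3.05 in the control. The 739 that passed only in the control had 2.01 in the TGF-beta library and 5.52 in the control.

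**Figure D1:**
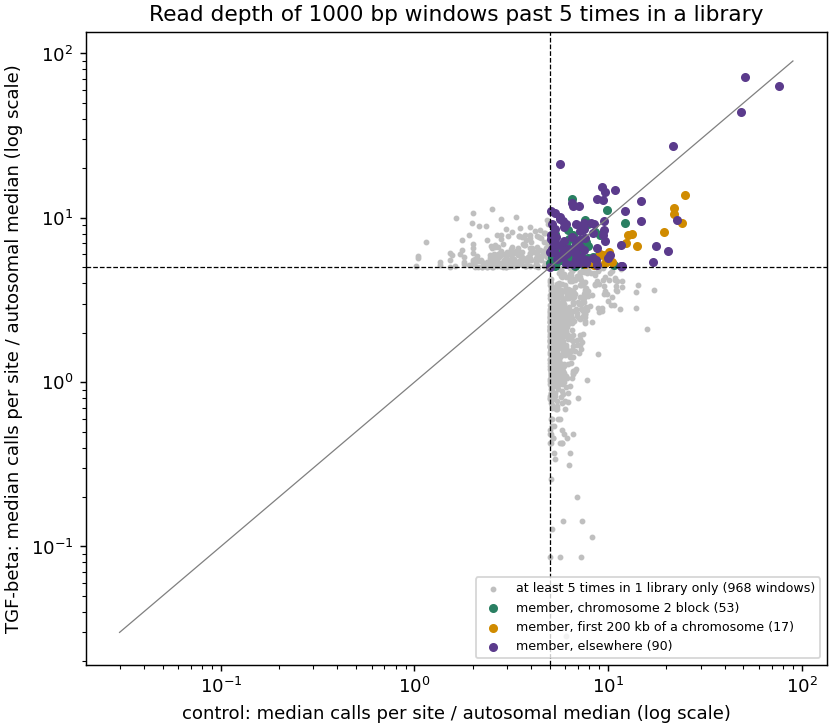
Depth of 1000 bp windows as a multiple of the autosomal median, TGF-beta library on the vertical and control on the horizontal axis, both on log scales. Coloured points are the 160 windows past 5 times in both libraries, grey points the 968 past it in 1 library, dashed lines mark 5 and the grey line equal multiples. Most coloured points lie near the corner of the limits, the 17 windows in the first 200 kb of a chromosome all lie below the line of equal multiples, and 3 windows lie far above the rest in both libraries.

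At the edge of the rule the values ran on without a gap. Just inside were chromosome 23 at 20640001 to 20641000, at 6.23 times the median in the TGF-beta library and 5.00 times in the control, chromosome 18 at 49141001 to 49142000, at 5.04 (TGF-beta) and 5.02 (control) times, and chromosome 2 at 84098001 to 84099000, at 5.33 (TGF-beta) and 5.02 (control) times. Just outside were chromosome 23 at 20543001 to 20544000, at 4.97 (TGF-beta) and 8.86 (control) times, chromosome 2 at 84076001 to 84077000, at 4.97 (TGF-beta) and 5.62 (control) times, and chromosome 2 at 83943001 to 83944000, at 5.10 (TGF-beta) and 4.98 (control) times. At 3 times the median 1863 windows passed, and at 10 times 10 windows passed.

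The windows were gathered in few places. They lay on 26 of the 38 autosomes, and chromosomes 2, 9, 5, 18 and 16 held 55, 19, 13, 12 and 11 of them. Joined across gaps of at most 50 kb they made 49 clusters, of which 27 were single windows and 9 held 4 or more windows, 104 in all. Within 200 kb of the first base or the last listed site of a chromosome lay 24 of them (15.0%), against 0.796% of all windows. The longest run without a gap was chromosome 2 at 84113001 to 84121000, with 8 windows. Next came 3 runs of 4 windows, on chromosome 16 at 34001 to 38000 and on chromosome 2 at 83946001 to 83950000 and at 84071001 to 84075000, and then 5 runs of 3 windows. Neighbouring windows can share reads and are not independent of each other.

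The largest cluster was a block of 201 kb on chromosome 2, at 83933001 to 84134000. It held 53 of the 160 windows. Depth was raised over the whole block and not only in these windows: 142 of its 182 windows were at 3 times the median or more in both libraries, and the median over the block was 4.55 in the TGF-beta library and 5.05 in the control, against 1.26 (TGF-beta) and 0.86 (control) in the 100 kb on each side. In bins of 20 kb, the left edge was a step between neighbouring bins, with medians inside and outside of 5.35 and 1.20 in the TGF-beta library, and of 5.26 and 0.952 in the control. At the right edge the last bin inside had medians of 5.89 in the TGF-beta library and 5.38 in the control. The next bin, which still held the last window of the block, had 1.64 (TGF-beta) and 1.06 (control). The first bin wholly outside had 0.943 (TGF-beta) and 0.619 (control). The depth ratio, the TGF-beta multiple over the control multiple, had a median of 0.99 over the 53 windows and ranged over 0.48 to 1.99.

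DNA across the chromosome 2 block was highly methylated in both libraries. The 53 windows had a median level of 94.6% in the TGF-beta library, over a range of 76.7% to 97.3%, and of 94.1% in the control, over 65.0% to 97.0%. Windows of the block that did not pass the rule were at 94.7% in the TGF-beta library and 93.8% in the control, and the flanks at 87.8% (TGF-beta) and 88.2% (control). The longest run of 8 windows stood at 94.3% in the TGF-beta library and 94.3% in the control. Sites within a window were close to each other, with a median SD of 3.46 points in the TGF-beta library and 3.39 in the control once counting error was taken off. The window with the lowest level, at 84095001 to 84096000, was also the one with the largest difference in the block, at 76.7% in the TGF-beta library and 65.0% in the control over 9 sites, and was higher on both strands.

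**Figure D2:**
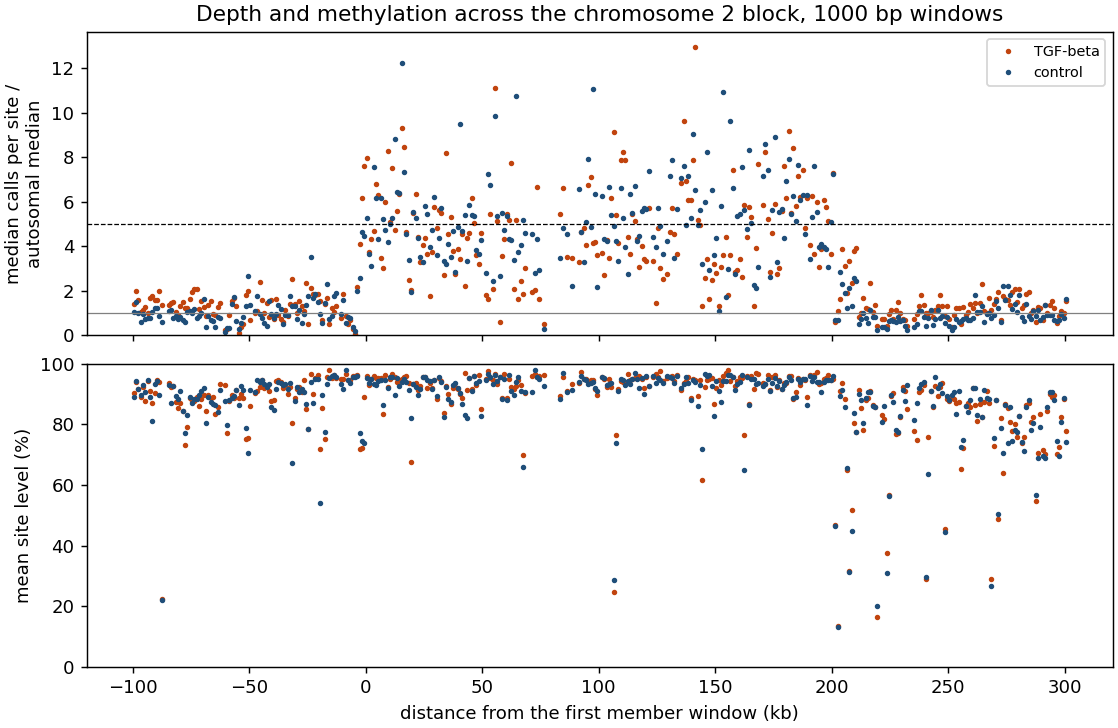
Depth as a multiple of the autosomal median (upper panel) and mean site level in percent (lower panel) of 1000 bp windows across the chromosome 2 block and 100 kb on each side, by distance from its first member in kb, with TGF-beta in red and control in blue. The dashed line marks 5 times the median and the grey line 1; depth steps up over 201 kb in both libraries, while levels inside the block stay mostly above 90%.

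The deepest windows lay elsewhere. Chromosome 7 at 80949001 to 80950000, near the end of that chromosome, had medians of 2234 calls per site in the TGF-beta library and 1606 in the control, which was 63.8 (TGF-beta) and 76.5 (control) times the autosomal medians. Its 24 sites covered 3.06% to 85.6% in the TGF-beta library and 3.69% to 84.7% in the control, with means of 37.9% (TGF-beta) and 38.9% (control). Site by site the libraries followed each other closely (r = 0.99 across the 24 sites of these deep libraries, which are not replicates). Chromosome 5 at 40772001 to 40773000 had 2527 calls per site in the TGF-beta library and 1063 in the control, 72.2 (TGF-beta) and 50.6 (control) times the medians. Its mean levels were 81.3% in the TGF-beta library and 80.9% in the control, again with r = 0.99 across its 51 sites. Both windows held sites at very different levels within 1000 bp, in nearly the same pattern in the TGF-beta library and the control.

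Chromosome 7 at 80968001 to 80969000 was the third in depth and had the opposite character. It had 1550 calls per site in the TGF-beta library and 1023 in the control, 44.3 (TGF-beta) and 48.7 (control) times the medians. It held 92 usable sites at low and even levels, 8.43% to 22.0% in the TGF-beta library and 14.5% to 37.9% in the control. All 92 sites were lower in the TGF-beta library, by 1.52 to 17.9 points, and the mean level was 16.1% in the TGF-beta library and 24.4% in the control. The minus strand held most of the calls. The strands differed in size, with differences of -15.9 points for plus and -3.77 for minus. The window alone held 13.0% of the calls of the 160 windows in the TGF-beta library and 10.7% in the control. Its neighbours at 80967001 and 80974001 were also low, at 11.4% and 1.80% in the TGF-beta library and at 15.9% and 3.49% in the control.

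The other deepest windows were on chromosomes 6 and 16. Chromosome 6 at 43068001 to 43069000 had 954 calls per site in the TGF-beta library and 453 in the control, with levels of 54.3% (TGF-beta) and 56.6% (control). Its cluster of 4 windows had a median level of 37.2% in the TGF-beta library and 39.5% in the control, whereas the flanks were at 90.6% (TGF-beta) and 88.2% (control). Chromosome 16 at 35001 to 36000 had 480 calls per site in the TGF-beta library and 522 in the control. Its 85 sites averaged 92.9% in the TGF-beta library and 93.5% in the control, in the same range as the chromosome 2 block.

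Across all 160 windows the usual level was high. The median of the window means was 87.8% in the TGF-beta library and 88.2% in the control, against 68.1% (TGF-beta) and 67.4% (control) in the other windows. Levels of 80% or more were found in 104 windows (65.0%) of the TGF-beta library and 103 (64.4%) of the control, against 37.96% (TGF-beta) and 37.1% (control) of the other windows. Levels between 20% and 80% were found in 52 windows (32.5%) of the TGF-beta library and 54 (33.8%) of the control, against 53.9% (TGF-beta) and 54.9% (control) of the other windows. Under 20% were 4 windows (2.50%) of the TGF-beta library and 3 (1.88%) of the control, against 8.18% (TGF-beta) and 7.98% (control) of the other windows. The 4 windows of very high depth were 80967001, 80968001 and 80974001 on chromosome 7 and 10352001 on chromosome 9. Of them 80968001 was above 20% in the control. The one on chromosome 9 began a cluster of 9 windows, at 10352001 to 10369000, in which the other 8 were at 74.0% to 87.8% in the TGF-beta library and at 76.9% to 91.8% in the control.

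The high median rested in large part on chromosome 2. Without that chromosome it was 79.9% in the TGF-beta library and 79.4% in the control, and with 1 value per cluster it was 80.2% (TGF-beta) and 79.4% (control), both still above the other windows. Levels also differed with depth below the limit. From windows under 1 time the median to those at 1 to 2, 2 to 3, 3 to 5 and at least 5 times, the median level was 64.6%, 73.2%, 77.8%, 78.5% and 87.8% in the TGF-beta library, and 64.1%, 72.4%, 77.1%, 77.0% and 88.2% in the control. The 10 windows past 10 times in both libraries were lower, at 67.8% in the TGF-beta library and 68.7% in the control.

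**Figure D3:**
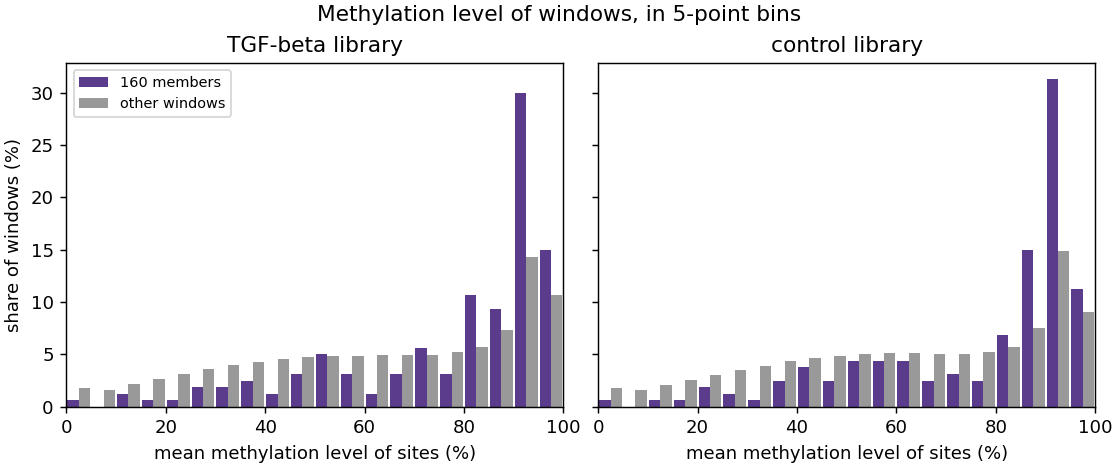
Share of windows in percent by mean site level in 5-point bins, in the TGF-beta library (left) and the control (right), for the 160 windows of very high depth (purple) and the other autosomal windows (grey). The bin from 90% to 95% holds the most windows of very high depth in each library.

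Sites within these windows had a smaller median spread than sites in other windows, except where a window held few sites. The median SD of site levels within a window, less counting error, was 11.4 points in the TGF-beta library and 10.2 in the control, against 22.8 (TGF-beta) and 22.1 (control) in the other windows. In windows of 5 to 9 listed sites there was little difference, at 21.0 points in these windows against 21.6 in the other windows in the TGF-beta library, and 21.6 against 21.3 in the control, whereas in windows of 10 to 19 sites it was 12.1 against 24.0 (TGF-beta) and 10.5 against 23.2 (control). Over all windows, drawn down to 10 calls per site, so that depth was equal, and with counting error left in, it was 14.8 points in the TGF-beta library and 14.1 in the control, against 24.8 (TGF-beta) and 24.2 (control) in the other windows. Without chromosome 2, less counting error, it was 17.5 points in the TGF-beta library and 17.4 in the control. Level moved with spread, and its part was not tested. With 5 to 9 sites the median level was 65.9% (TGF-beta) and 59.0% (control), against 59.4% (TGF-beta) and 58.6% (control) in the other windows. With 10 to 19 sites it was 89.0% (TGF-beta) and 88.9% (control), against 71.9% (TGF-beta) and 71.3% (control). At equal calls per site, 17.8% of the 4143 sites in these windows lay between 20% and 80% in the TGF-beta library and 18.9% in the control, against 24.6% (TGF-beta) and 25.8% (control) of the sites elsewhere. Some clusters mixed levels within each window: the 4 windows on chromosome 16 at 59361001 to 59367000 had a median level of 49.2% in the TGF-beta library and 49.3% in the control, with a median SD between sites of 30.9 (TGF-beta) and 30.8 (control) points. Likewise the 7 windows on chromosome 5 at 78290001 to 78337000 were at 53.8% in the TGF-beta library and 49.9% in the control, with SDs of 23.6 (TGF-beta) and 23.8 (control) points.

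The levels of the libraries were close in most of these windows. The median difference in mean site level, TGF-beta minus control, was 0.146 points (quartiles -1.28 and 1.22), with 87 windows higher and 73 lower, and the median absolute difference was 1.24 points, against 3.37 points in the other windows. Depth moved with this value, and its part was not tested: the median absolute difference was 3.76, 2.85, 2.60 and 2.32 points in the 4 depth classes below the limit. Summed over all calls the windows looked lower in the TGF-beta library, at 69.3% (exact binomial 95% interval 69.2 to 69.3) against 74.2% (74.2 to 74.3) in the control, a difference of -4.98 points (-5.09 to -4.86). Those intervals cover counting error only. The summed value gave most weight to the deepest windows: the windows of chromosome 7 held 22.3% of the summed calls in the TGF-beta library and 19.2% in the control, and without them the difference was -2.14 points. With the calls of each window set to those of the control, the difference was -0.897 points, and with those of the TGF-beta library it was -1.08.

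**Figure D4:**
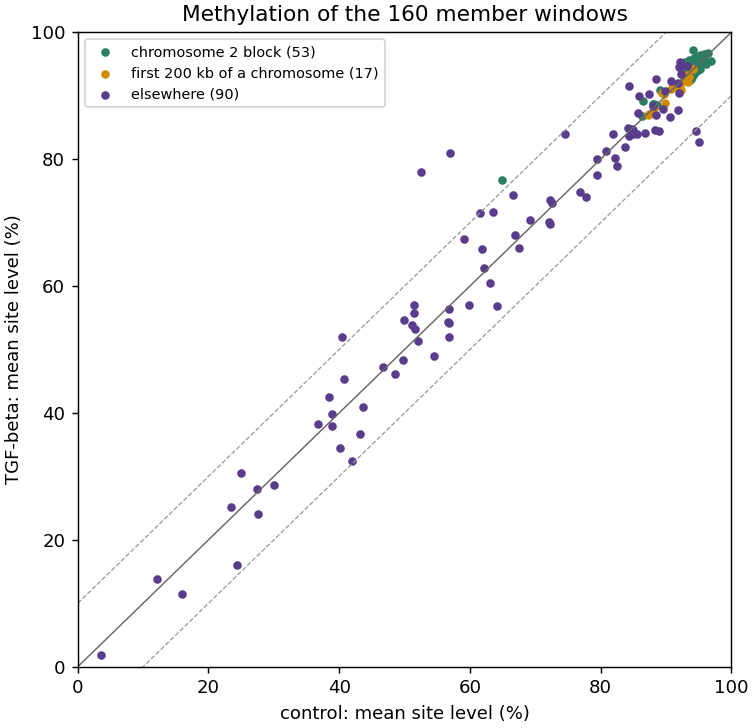
Mean site level in percent of each of the 160 windows in the TGF-beta library (vertical axis) and the control (horizontal axis). The solid line marks equal levels and the dashed lines a difference of 10 points; 2 points lie far above the dashed lines, on chromosomes 18 and 23, and the chromosome 2 block lies almost wholly at the upper right.

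Large differences between the libraries were few among these windows, and whether their share lay below that of all windows depended on the test. Of the 160, 158 had at least 5 usable sites and were tested, and the other two, chromosome 9 at 8742001 and chromosome 13 at 43534001, had 4 each. At an adjusted p under 0.05 in Fisher's exact test, adjusted over 1374041 windows by Benjamini and Hochberg's method, and a difference of at least 20 points by summed calls, 2 of them (1.27%) were higher in the TGF-beta library, against 2.26% of all tested windows, and 1 (0.633%) was lower, against 1.43%. At the same adjusted p with any size of difference, 34 (21.5%) were higher against 13.6% of all windows, and 28 (17.7%) were lower against 9.97%. At this depth the exact test passes very small differences. Differences of 10 points or more in mean site level, with no test, were seen upward in 4 of the 158 (2.53%) against 6.45%, and downward in 2 (1.27%) against 5.66%. Such shares differed with depth. In the 4 depth classes below the limit they were 8.08%, 5.45%, 5.24% and 4.76% upward. Downward they were 7.54%, 4.25%, 4.03% and 4.05%, and the part of depth was not tested. The exact test takes calls as independent, but the strands of these windows differed far more than that allows. The squared difference between strands averaged 67.0 times its binomial expectation over 76 of these windows in the TGF-beta library and 69.4 times over 75 in the control, so the exact p-values below are too small. Over all windows these factors were 5.17 in the TGF-beta library and 2.75 in the control. Such a factor grows with calls, so the deepest windows weigh most in it. One of them, chromosome 7 at 80949001 with 54382 TGF-beta calls, had its strands at 24.8% and 46.4% in that library. In points the median strand gap was smaller here, at 2.00 (TGF-beta) and 1.86 (control). It was 4.48 (TGF-beta) and 4.66 (control) in the other windows, which had fewer calls. Their median calls per window were 345 (TGF-beta) and 255 (control), against 3933.5 (TGF-beta) and 2425.5 (control) here. Counting error thus adds more to their gaps, and its part was not tested. A score test scaled by the factors over all windows called the same number, 2 higher and 1 lower at 20 points. It called 0.812% of all tested windows higher and 0.368% lower. By that test the shares here, 1.27% and 0.633%, were above those of all windows, whereas by the exact test they were below. A score test scaled by the factors of the windows themselves called 1 higher, on chromosome 18, and 0 lower at 20 points.

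The largest gain was on chromosome 18, at 49148001 to 49149000. Depth was 233 calls per site in the TGF-beta library and 151 in the control, 6.66 (TGF-beta) and 7.19 (control) times the medians. Summed calls gave 79.9% (78.6 to 81.0, 4264 calls) in the TGF-beta library against 49.5% (47.7 to 51.3, 3058 calls) in the control (Fisher's exact test, adjusted p = 5.48e-159, and 0.0496 in the score test scaled by the windows' own factors), and the means of its 21 sites were 78.0% (TGF-beta) and 52.4% (control). Of these sites 20 were higher in the TGF-beta library, and the difference held on each strand, at 31.1 points for plus and 26.6 for minus. The libraries were together at the start of the window, at 81.9% (TGF-beta) against 82.5% (control) at the first site. They were apart from the sixth site on, with 90.3% in the TGF-beta library against 69.1% in the control at position 49148247 and 93.2% in the TGF-beta library against 43.2% in the control at position 49148790. At the last site, 49148879, they were at 36.4% (TGF-beta) against 9.70% (control). The next window, at 49149001 to 49150000, was not past the depth limit and stood at 42.6% in the TGF-beta library and 28.9% in the control. The window before it, at 49147001, was at 83.9% in the TGF-beta library and 81.9% in the control.

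The gain was the end of a cluster whose windows of very high depth leaned the same way. The 12 windows on chromosome 18 at 49088001 to 49149000 were at a median of 90.5% in the TGF-beta library and 86.6% in the control. In 11 of the 12 the TGF-beta level was higher, with a median difference of 2.28 points. Windows of that span that did not pass the rule had median levels of 84.2% in the TGF-beta library and 85.0% in the control. Other clusters leaned the other way: 7 of the 9 windows on chromosome 9 at 10352001 to 10369000 were lower in the TGF-beta library, with a median difference of -2.67 points, and 5 of the 6 on chromosome 7 at 80949001 to 80975000, with -1.35 points. In the chromosome 2 block 36 of 53 were higher, with a median of 0.371 points. Other windows of the chromosome 18 cluster were among the largest gains in windows of at least 10 sites: 49144001 to 49145000 was at 71.6% in the TGF-beta library and 63.5% in the control, 49131001 to 49132000 at 91.5% (TGF-beta) and 84.4% (control), and 49140001 to 49141000 at 92.6% (TGF-beta) and 88.4% (control). Among windows of at least 10 sites, the remaining one of the 5 largest gains that held on both strands was chromosome 5 at 78334001 to 78335000, at 54.6% (TGF-beta) and 49.9% (control), in a cluster in which all 7 windows were higher in the TGF-beta library, by 1.23 to 4.74 points. The window of 9 sites in the chromosome 2 block, given above, gained 11.7 points. Windows of a cluster share sequence context and possibly reads, and how often clusters lean one way by chance was not tested.

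The other window called higher rested mostly on 1 strand. Chromosome 23 at 20550001 to 20551000 had summed levels of 78.1% (76.1 to 80.0) in the TGF-beta library and 52.7% (49.8 to 55.6) in the control (Fisher's exact test, adjusted p = 3.36e-44), and means of 81.0% (TGF-beta) and 57.0% (control) over 9 sites. The largest differences were at the last 5 sites, from position 20550838 to 20550975, where the TGF-beta library was higher by 34.3, 21.7, 34.6, 54.0 and 49.4 points, while the first 4 sites differed by -0.128, 1.74, 8.56 and 11.6 points. The plus strand held 97.8% of its calls in the TGF-beta library and 93.3% in the control. At the sites covered on both strands plus-strand calls differed by 2.50 points and minus-strand calls by -1.74, so the gain was read almost wholly from 1 strand. In the score test scaled by the windows' own factors its adjusted p was 0.579. The one window called lower, chromosome 9 at 8737001 to 8738000, had few sites and most of its calls on 1 strand. Summed calls gave 19.2% in the TGF-beta library against 40.9% in the control (Fisher's exact test, adjusted p = 7.76e-19), whereas the means over its 5 sites were 32.4% (TGF-beta) and 42.0% (control). The plus strand held 96.7% of its calls in the TGF-beta library and 83.8% in the control. At the sites covered on both strands each strand was lower, with differences of -12.7 points for plus and -14.05 for minus, and the adjusted p was 0.838 in the score test scaled by the windows' own factors.

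Among windows of at least 10 sites, the largest losses in mean site level that held on both strands were 2 adjacent windows on chromosome 20. At 51792001 to 51793000 the level was 82.7% in the TGF-beta library and 95.1% in the control over 13 sites, and at 51791001 to 51792000 it was 84.5% (TGF-beta) and 94.6% (control) over 15 sites. The plus strand held 5.33% (TGF-beta) and 19.8% (control) of the calls at 51792001, and 13.75% (TGF-beta) and 28.1% (control) at 51791001. In the second window all 15 sites were lower, and in the first 12 of 13. Both differences passed the exact test (adjusted p = 3.75e-32 and 8.72e-35) without reaching 20 points, but not the score test scaled by the windows' own factors (adjusted p = 0.766 and 0.736). Control sites stood evenly high, at 87.5% to 100% in the first window, whereas the TGF-beta sites ranged over 56.0% to 94.5%. Depth moved with this result: the windows were at 11.7 and 12.3 times the median in the TGF-beta library and 6.55 and 6.48 times in the control, and whether the extra depth came with the lower levels was not tested. The other large losses under the same limits were chromosome 7 at 80968001, given above, chromosome 11 at 24637001 to 24638000, at 56.8% (TGF-beta) and 64.1% (control), and chromosome 6 at 43067001 to 43068000, at 34.5% (TGF-beta) and 40.1% (control). In the window on chromosome 11 the plus strand held 8.46% (TGF-beta) and 7.16% (control) of the calls. The window of 5 sites on chromosome 9 at 8737001, with -9.57 points, lies outside that limit on sites.

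**Figure D5:**
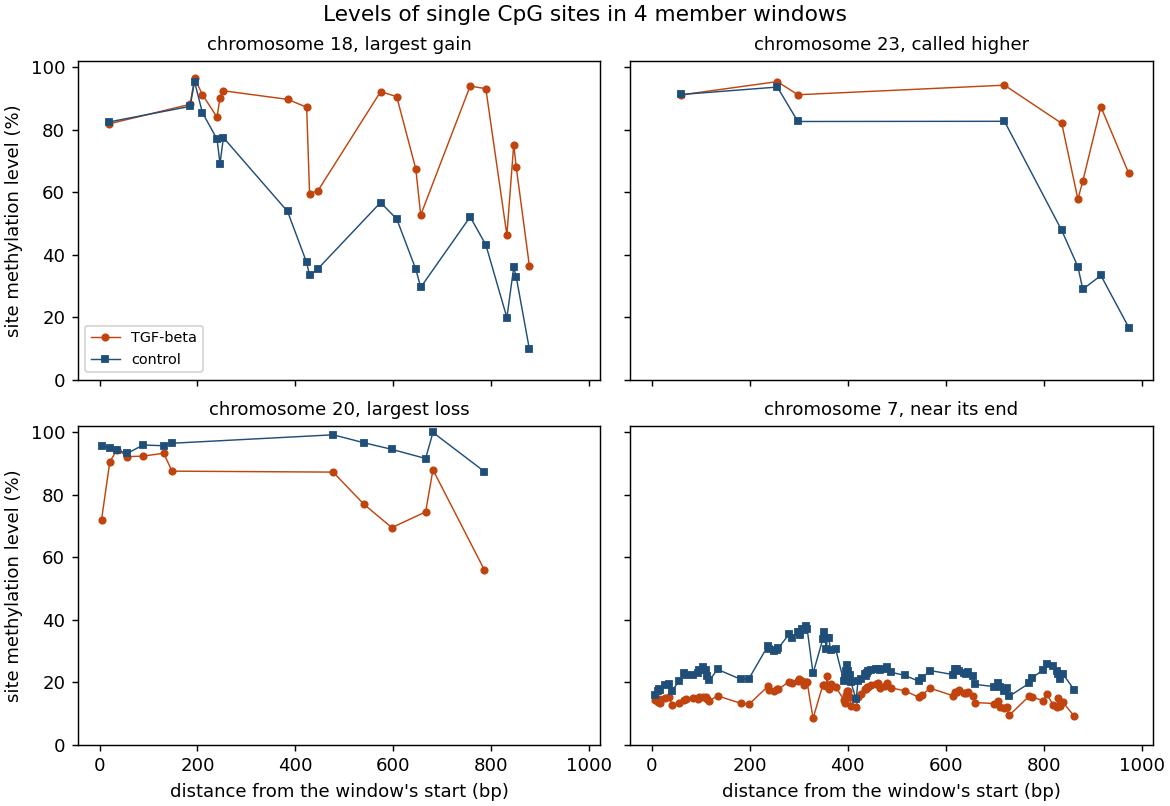
Level in percent of each CpG site along 4 windows, by distance in bp from the window's start, with TGF-beta in red and control in blue. On chromosome 18 the libraries part within the window, on chromosome 23 most at its last 5 sites, on chromosome 20 mostly toward its end, and on chromosome 7 all 92 sites are lower in the TGF-beta library.

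Depth itself differed between the libraries in parts of this set, which is given as a description because depth chose the windows. The median depth ratio was 0.993 (quartiles 0.749 and 1.20), and it ranged over 0.307 to 3.79. The highest ratios were 3.79 on chromosome 9 at 13260001 to 13261000, 2.16 on chromosome 9 at 53026001 to 53027000 and 2.01 on chromosome 16 at 59362001 to 59363000. In the first of these, depth was 746 calls per site in the TGF-beta library and 118 in the control. Summed levels there were 72.8% in the TGF-beta library and 80.1% in the control, but the means of site levels were 81.8% (TGF-beta) and 83.7% (control). The lowest ratios were 0.307 on chromosome 7 at 80950001 to 80951000, 0.314 on chromosome 6 at 43073001 to 43074000 and 0.383 on chromosome 16 at 41390001 to 41391000. At these 3 windows the mean levels were within 1.14 points of each other in the libraries.

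Windows at the start of chromosomes shared a low depth ratio and a high level. The 17 windows in the first 200 kb, on 7 chromosomes, all had a ratio under 1, over a range of 0.389 to 0.696, and 16 of them held 40 or more listed sites. Their median ratio was 0.569, whereas other windows of the first 200 kb with as many sites had 1.33, and the 15 windows of very high depth with as many sites elsewhere had 1.33. By summed calls these ratios were 0.517 in the windows at the start of chromosomes, 0.830 in the other windows of the first 200 kb and 1.09 in those elsewhere, so the other windows of the first 200 kb were above 1 by the median and below it by the sum. Their levels were high and even, at 86.9% to 94.3% in the TGF-beta library and 87.3% to 94.2% in the control, and no window differed by 10 points. In the windows of 40 or more sites outside the set, the median ratio was 1.41. Fewer copies in the TGF-beta cells and fewer reads from the same copies cannot be told apart in these data. The 7 windows in the last 200 kb, on chromosomes 7 and 27, had a median ratio of 0.884. A low ratio with a high level was also seen away from the starts. The window on chromosome 27 at 45858001 had a ratio of 0.434, at 88.4% (TGF-beta) and 88.1% (control). Chromosome 14 at 374001, outside the first 200 kb and with 57 sites, had 0.429, at 86.9% (TGF-beta) and 88.5% (control).

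The strands gave a check of the levels. In the 152 windows with enough calls on both strands, the strands differed by a median of 2.00 points in the TGF-beta library and 1.86 in the control, and by 10 points or more in 18 windows (11.8%) of each library, against 23.4% (TGF-beta) and 23.1% (control) of the other windows. Counting error adds more to such gaps in the other windows, which had fewer calls, and its part was not tested. Both strands were higher in the TGF-beta library by at least 10 points in 2 of the 152 windows and lower in 1. No window had strands that far apart in opposite senses. Among about 1005140 other windows, both strands were higher in 53155 and lower in 44122, and they went in opposite senses in 22272. Opposite senses were thus uncommon elsewhere too, and their absence in 152 windows says little. Calls were shared unequally by the strands, with under 20% or at least 80% on the plus strand, in 47 of 159 windows (29.6%) in the TGF-beta library and 30 (18.9%) in the control, against 24.3% (TGF-beta) and 15.0% (control) of the other windows. In 26 windows (16.4%) this was so on the same side in both libraries, against 11.1% of the other windows. Among sites between 20% and 80%, 79.5% in the TGF-beta library and 73.5% in the control were intermediate on both strands, against 81.1% (TGF-beta) and 79.0% (control) of such sites elsewhere.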

How the data were processed

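The deposited values are counts: for each CpG cytosine the authors' files list methylated and unmethylated calls, strands on separate lines. The submitters' processing notes name Bismark, Bowtie 0.12.8 and canFam3, whereas the labels' extract protocol names SOAPaligner2. Not given in the sources used here are duplicate removal and the placing of reads with several matches, which could change depth in repeats. The methylated column was recognised from mitochondrial DNA, at 0.329% in the TGF-beta library and 0.211% in the control. The libraries held 1019766599 and 656122583 calls.

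Neighbouring cytosines were joined into sites, and a cytosine listed without a neighbour was kept as a site. Of the 23477970 autosomal sites, 91.1% had both strands listed. Adjacent cytosines in odd numbers above 1 could not be paired and were left out, with 0.00688% of autosomal calls. In each file 1 line names no chromosome and was left out. Windows, levels and intervals (exact Clopper-Pearson, 95%, counting error only) were computed with numpy 2.4.6, numba 0.67.0, pandas 2.3.3 and scipy 1.17.1 under Python 3.11.15, tables stored with pyarrow 21.0.0 and figures drawn with matplotlib 3.10.9. Usable sites had at least 5 calls in both libraries, and tested windows at least 5 such sites. Fisher's exact test was two-sided, used the summed calls of a window with Benjamini-Hochberg adjustment, and was tested on simulated data. A score test scaled the variance by the overdispersion between strands over all windows, and, as an alternative chosen after seeing the data, by that of the windows of very high depth. Site spread is the SD of site levels less binomial variance.

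The members and lists were chosen with earlier results of these data known. Named windows are the 5 deepest, the 3 highest and 3 lowest depth ratios, the 5 largest gains and losses that held on both strands with at least 10 sites, the longest runs of windows (5 tied runs of 3 are only counted), and 3 windows on each side of the limit. The windows called by the exact test, the clusters and the window on chromosome 2 with a large difference were picked with their values in view. Gene names are not used here.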

Additional observations from a re-analysis of the deposited data

How the results depend on the processing

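With windows shifted by 500 bp 170 windows passed the depth rule, and with sites listed in either file 169; at 3 and 10 times the median 1863 and 10 passed. The summed difference of -4.98 points was -4.99 and -5.00 with at least 10 and 50 calls per site, but -0.227 by the mean of site levels, and it reversed to 0.146 as a median over windows. It was -2.62 points on the plus strand alone, -6.22 on the minus strand alone, -3.19 at 3 times, -7.04 at 10 times, -6.39 without chromosome 2 and -2.53 with 1 window per run. Alternatives chosen after seeing the data gave -2.14 without chromosome 7, and -0.897 and -1.08 with windows weighted by control calls and by TGF-beta calls. At 10 points in place of 20 the exact test called 6 of the 158 tested windows higher and 2 lower. Over all tested windows it called 8.45% higher and 6.52% lower at 10 points. With mean site levels also required to differ by 20 points it called 2 higher and 0 lower. The score test with the overdispersion of all windows called 2 higher and 1 lower, against 0.812% and 0.368% of all tested windows. With the overdispersion of these windows, an alternative also chosen after seeing the data, the score test called 1 higher and 0 lower.

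The median level of the windows was 79.8% (TGF-beta) and 78.4% (control) at 3 times and 67.8% (TGF-beta) and 68.7% (control) at 10 times. Also added after seeing the data, it was 79.9% (TGF-beta) and 79.4% (control) without chromosome 2 and 80.2% (TGF-beta) and 79.4% (control) with 1 value per cluster. Site spread was 14.8 points in the TGF-beta library when each site was thinned to 10 calls with counting error left in, and 17.5 (TGF-beta) and 17.4 (control) points without chromosome 2. The depth ratio of 0.993 was 0.843 by summed calls, 0.882 at 10 times, 1.14 in windows of 20 to 39 sites and 0.634 in those of 40 or more. The cause of these shifts was not tested, other than that a sum weights windows by depth. No paired analysis was possible because each group has 1 library.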
